A study of Mus musculus with 24 samples.

Results

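The genes described here are 10 that handle iron, zinc and copper: the metallothioneins Mt1 and Mt2, the ferritin chains Fth1 and Ftl1, the iron uptake genes Tfrc, Slc11a2 and Trf, the iron exporter gene Slc40a1, the ferroxidase gene Cp and the zinc importer gene Slc39a4. They were taken by symbol, as every probe set that the platform annotation gives to one of them, out of 19324 gene symbols annotated on the array pair. They hold 33 probe sets, 28 on the Affymetrix MOE430A array (430A) and 5 on its companion 430B. Curcumin, the yellow polyphenol of turmeric, binds iron, which is why these genes were looked at together.

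The series measured whole colon of BALB/c mice, an inbred laboratory strain, aged 6 to 8 weeks. In the curcumin TNBS group the mice ate a diet with 2% curcumin and received an enema of TNBS (trinitrobenzene sulfonic acid), which couples to proteins as a hapten and inflames the colon. The standard TNBS group ate the standard diet and received the same enema, the curcumin control group ate the curcumin diet and received the control enema, and the standard control group ate the standard diet and received the control enema. In each group the diet began 2 days before the enema on day 0, and the colon was taken on day 7. The 4 groups hold 3 numbered samples each, and each of the 12 samples was put on both array types. The labels mention wild-type littermates but name no mutant allele. RNA of 3 mice was pooled in a group, and whether a group's 3 samples come from separate pools is not given in the labels, so p-values here measure only the spread between these samples, which may be technical.

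Cells take up iron bound to transferrin (Trf) through the transferrin receptor (Tfrc), move it across membranes as ferrous iron with the divalent metal transporter DMT1 (Slc11a2), store it in ferritin shells of heavy and light chains (Fth1, Ftl1), and release it through ferroportin (Slc40a1), whose exported iron is oxidised by ceruloplasmin (Cp). Iron regulatory proteins bind the messenger RNAs of several of these genes: when iron is scarce they stabilise the Tfrc message and block translation of ferritin, so that ferritin can change as a protein without a change in its messenger RNA. Metallothioneins are small cysteine-rich proteins that bind zinc and copper, and zinc, glucocorticoids and inflammatory cytokines are known to induce them.

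Some arrays stood apart in ways that bear on these genes. The first principal component of the 430A arrays, with 32.0% of the variance, parted the 12 samples into 2 sets of 6, and each group has 1 or 2 samples in each set. A fit with this array set as an added term (an array-set term) is therefore given beside the fit of the 4 group means where it changes a call. The labels name no batch. The sets were drawn from the same signals that are tested, so adjusted p-values with that term may be too small. On 430B the arrays of curcumin TNBS replicates 2 and 3 lay apart from the other 10. Curcumin control replicate 3 went against the rest of its group for Lcn2, the gene of the siderophore-binding protein lipocalin 2 that marks an inflamed epithelium: its signal was 710.1, against 82.1 and 101.1 in the other curcumin control samples. Several results that rest on that sample are given with and without it. Correlations and fits with array weights are given only with it. Cpa1, an enzyme gene of the exocrine pancreas, was above 1000 in 8 of the 12 samples (curcumin TNBS replicates 1 and 3, all standard TNBS replicates, curcumin control replicate 3, and standard control replicates 2 and 3). The summed signal of 9 colon epithelium markers was 54500 to 60320 in curcumin TNBS, 56040 to 57610 in standard TNBS, 58550 to 73420 in curcumin control and 53680 to 62290 in standard control samples.

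Under TNBS on the standard diet, Mt1, Mt2, Cp and Tfrc had higher signals and Slc40a1 lower ones than with the control enema, but in the fit of the 4 groups 0 of the 20 tested probe sets of the 10 genes passed the threshold, an adjusted p under 0.05. That adjustment runs over all 13575 probe sets of 430A kept by the filter on low signals, of which 1, or 0.00737%, passed. Signals are linear intensities, and differences are of log2(signal + 16), given ± their standard error, from limma. At an unadjusted p under 0.05 there were 6 higher and 1 lower of the 20, against 9.32% of all tested probe sets in both directions together. The 6 were those of Mt1, Mt2, Tfrc (1452661_at and 1422966_a_at) and Cp (1417494_a_at and 1455393_at). Probe sets of the same gene are not independent, so such counts are not counts of genes. The 3 TNBS samples lay wholly above the 3 controls for 7 of the 20 and wholly below for 1, against 7.01% and 7.65% of all tested probe sets. The median log2 difference of the 20 was 0.36, and that of all tested probe sets -0.02. With an array-set term, 2 of the 20 passed, both higher under TNBS, against 0.464% of all tested probe sets: the only tested Mt2 probe set and 1 of the Cp probe sets. Curcumin control replicate 3 bears on these calls through the shared spread. Without it 1 of the 20 passed, for Mt2, against 0.457% of all tested, and with an array-set term as well 5 passed, those of Mt1, Mt2, Slc40a1 (1417061_at) and Cp (1417494_a_at and 1455393_at), against 2.14% of all tested. With that term, 2 passed without standard TNBS replicate 2 (both of those Cp probe sets, against 1.23% of all tested) and 3 without curcumin control replicate 1 (Mt1, Mt2 and Cp 1455393_at, against 0.427%). With limma's array weights, which give noisier arrays less weight, 1 passed, again Mt2, against 1.44%.

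On the curcumin diet the same comparison gave smaller values for most of these genes: the median log2 difference of the 20 probe sets for TNBS against control was -0.07, 0 passed the threshold (0% of all tested did) and 0 had an unadjusted p under 0.05, a level that 2.75% of all tested probe sets reached. One of the 20, for Slc11a2, had TNBS samples wholly below the controls and 0 wholly above, against 3.67% and 3.42% of all tested probe sets. Curcumin control replicate 3 is among the controls of this comparison. For Mt2 the log2 difference was 0.08 ± 0.24 with it and 0.29 ± 0.24 without it. For Tfrc 1452661_at it was -0.06 ± 0.19 and 0.12 ± 0.19. Other values went lower without that replicate, from -0.21 ± 0.19 to -0.28 ± 0.22 for Fth1 1427021_s_at. Those of 1422302_s_at of Ftl1 and Ftl1-ps2 went from 0.02 ± 0.16 to -0.18 ± 0.13. The difference between the diets in the enema effect, the interaction, passed for 0 of the 20 (0% of all tested did) and had an unadjusted p under 0.05 for 7 in the negative direction and 1 in the positive one, against 9.92% of all tested probe sets. With array weights 2 of the 20 passed, both negative (Tfrc 1422966_a_at and Cp 1417494_a_at), against 5.01% of all tested. In the 4-group fit the enema effect is thus not shown to differ between the diets for any of the 10 genes.

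**Figure D1:**
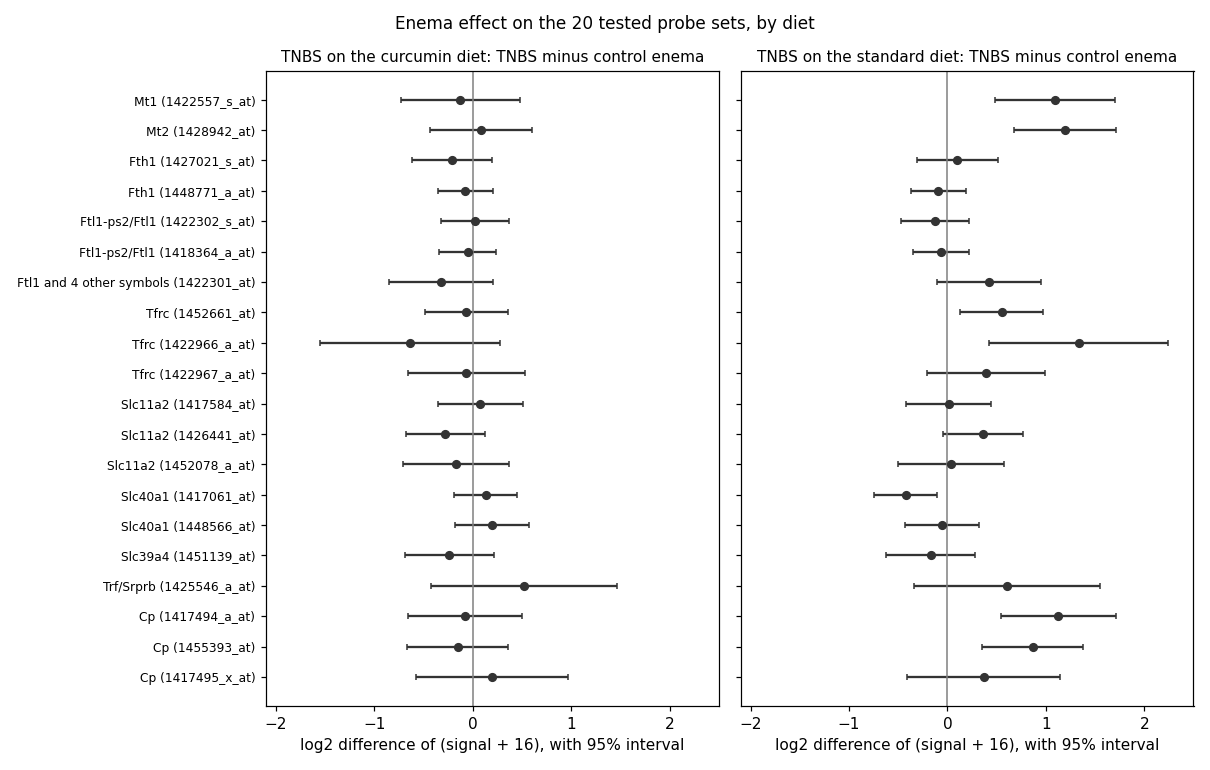
Log2 differences between TNBS and control enema for the 20 tested probe sets, on the curcumin diet (left) and on the standard diet (right). Points are limma estimates of log2(signal + 16) over 3 samples a group and lines their 95% intervals. On the standard diet the intervals of Mt1, Mt2, Cp (1417494_a_at and 1455393_at) and Tfrc (1452661_at and 1422966_a_at) lie above 0 and that of Slc40a1 (1417061_at) below 0, while on the curcumin diet all 20 intervals span 0.

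Both metallothionein genes were at their highest in standard TNBS samples and at their lowest in standard control samples. Mt2 (1428942_at) had signals of 5241, 3977 and 3156 in standard TNBS samples, against 1307, 1873 and 2213 in standard control samples. The groups did not overlap, and every TNBS sample was above every control. The log2 difference was 1.19 ± 0.24 (2.29-fold, 95% interval 0.68 to 1.71), with an adjusted p of 0.0986 in limma with 4 groups and 0.0485 with an array-set term, where the difference was 1.24 ± 0.24. So Mt2 passed as higher under TNBS in the fit with that term and did not pass in the 4-group fit. Within the 2 array sets, which hold 2 TNBS samples against 1 control and 1 against 2, it was 1.43 and 1.36. Without curcumin control replicate 3, which enters only the spread here, the adjusted p of the 4-group fit was 0.0419.

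Mt1 (1422557_s_at) followed the same order. Its signals were 8356, 4323 and 4047 in standard TNBS samples, against 1795, 2794 and 2968 in standard control samples. The groups did not overlap, but replicate 1 of the TNBS group was far above its other replicates. The log2 difference was 1.09 ± 0.28 (2.13-fold) with an adjusted p of 0.182 in limma, and 1.17 ± 0.27 with an adjusted p of 0.0809 with an array-set term. Without that replicate it was 0.76 ± 0.24 (adjusted p of 0.382). The other Mt1 probe set, 1451612_at, ran from 53.0 to 180.4 over the 12 samples and was too dim to be tested.

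The means of both curcumin groups stood between these extremes. Mt1 had signals of 3614, 3791 and 2581 in curcumin TNBS samples, all below the lowest of the standard TNBS samples, with a log2 difference of -0.68 ± 0.28 and an adjusted p of 0.424 in limma. Mt2 had 3157, 3280 and 2562 there, which overlapped the standard TNBS samples, with a log2 difference of -0.43 ± 0.24 and an adjusted p of 0.584. Within the 2 array sets these curcumin differences were unequal, at -0.21 and -1.41 for Mt1 and -0.17 and -0.85 for Mt2. Under the control enema the curcumin samples were the higher ones.

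Mt2 had signals of 2272, 2602 and 3770 in curcumin control samples, just above the 2213 of the highest standard control sample. Its log2 difference was 0.68 ± 0.24 (unadjusted p of 0.0147, adjusted p of 0.998 in limma), and 0.47 ± 0.24 without curcumin control replicate 3. Mt1 had 2831, 4069 and 3992 in curcumin control samples, with 1 of them inside the range of the standard controls, and a log2 difference of 0.54 ± 0.28 (adjusted p of 0.998). Within the 2 array sets this curcumin difference was 1.25 and 0.16 for Mt2, and 1.16 and -0.02 for Mt1. The order of the 4 group means was thus standard TNBS, curcumin TNBS, curcumin control and standard control for Mt2, with 4125 ± 1050, 3000 ± 384, 2881 ± 787 and 1798 ± 457 (SD, n = 3 each), and the middle pair overlapped each other. For Mt1 the same middle pair changed places, with means of 5575 ± 2412 in standard TNBS, 3631 ± 694 in curcumin control, 3328 ± 653 in curcumin TNBS and 2519 ± 633 in standard control samples. The interaction was -1.22 ± 0.40 for Mt1 and -1.11 ± 0.34 for Mt2 on the log2 scale, with adjusted p-values of 0.339 and 0.303 in limma, and -1.14 ± 0.43 and -0.90 ± 0.32 without curcumin control replicate 3.

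**Figure D2:**
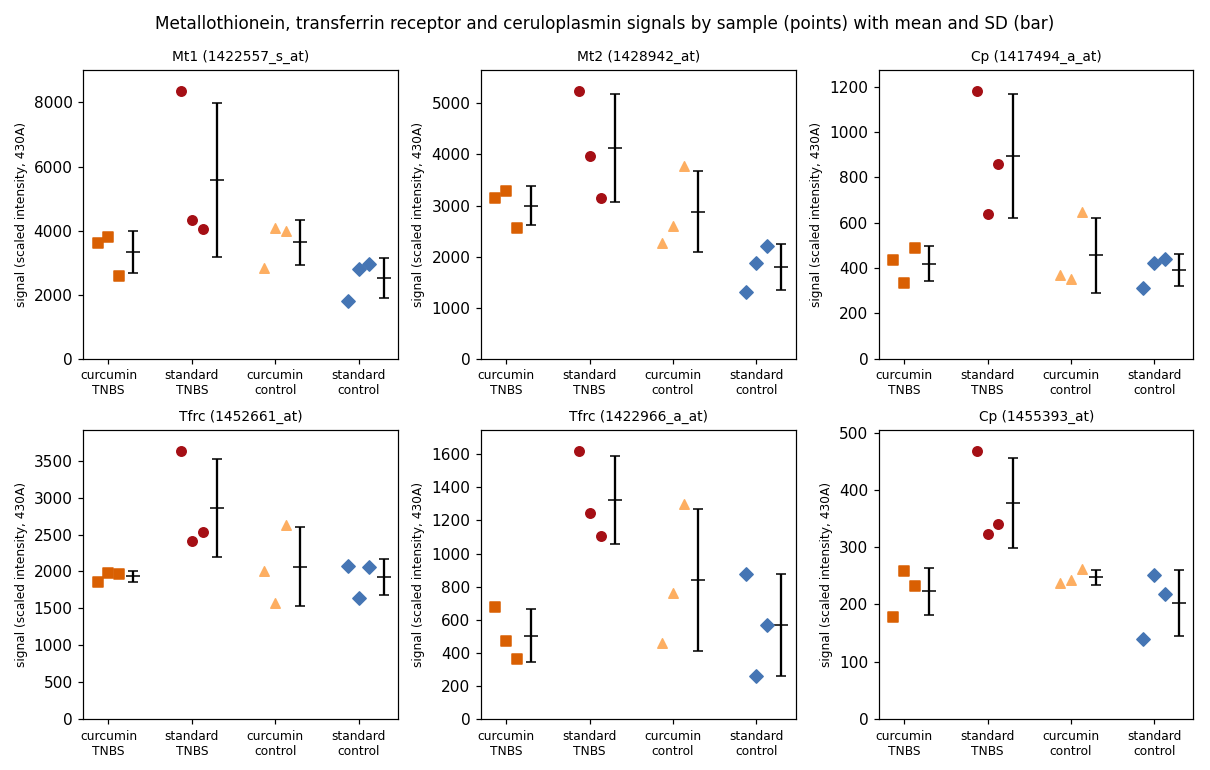
Signals of Mt1, Mt2, Cp and Tfrc probe sets on 430A in each of the 12 samples (points), with the mean and SD of each group of 3 (bars), on linear axes from 0. The standard TNBS samples are the highest group in all 6 panels, and curcumin control replicate 3 (the rightmost triangle) reaches the range of the standard TNBS samples for Mt2, Cp 1417494_a_at and both Tfrc probe sets.

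Mt1 and Mt2 lie next to each other on mouse chromosome 8, and metals induce both through metal response elements, which the zinc-sensing factor MTF1 binds. Over the 12 samples their log2 signals had a Pearson correlation of 0.914, and of 0.859 after each group's mean was removed, given here as a description over samples that share group, array type and scaling. The 250 bases before each start site are shown as a description, from RefSeq on GRCm38.p6, plus strand, 5′ to 3′. They are Mt1 at chr8:94178839-94179088 and Mt2 at chr8:94172368-94172617. Whether they bear on the shared movement of the pair was not tested. Capitals mark matches to the core of the metal response element, searched as TGCACNC and TGCGCNC on both strands, letters that exclude each other at the same position.
Mt1: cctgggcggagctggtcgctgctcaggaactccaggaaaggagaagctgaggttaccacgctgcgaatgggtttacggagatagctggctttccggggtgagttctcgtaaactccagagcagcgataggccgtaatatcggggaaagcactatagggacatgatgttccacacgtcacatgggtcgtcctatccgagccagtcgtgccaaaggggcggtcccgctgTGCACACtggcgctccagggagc
Mt2: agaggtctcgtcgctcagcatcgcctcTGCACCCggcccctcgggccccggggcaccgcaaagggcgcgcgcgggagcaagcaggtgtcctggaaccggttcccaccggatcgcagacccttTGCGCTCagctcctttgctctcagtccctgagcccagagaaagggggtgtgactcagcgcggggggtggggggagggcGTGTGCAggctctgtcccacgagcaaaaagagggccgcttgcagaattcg
The Mt1 stretch holds 1 match and the Mt2 stretch 3. With the 50 bases after the start included, Mt1 has 3 and Mt2 has 4. The 2 further Mt1 matches begin at bases 3 and 21 after the annotated start, outside the stretch shown. The start sites are RefSeq's, and where transcription starts in these samples was not measured. Of 32851 promoter windows of the same 300 bases, 25.7% held at least 1 match and 1.97% at least 3. A match of letters is a description and not a measured binding site.

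Cp, which encodes the copper-binding ferroxidase ceruloplasmin, had the same pattern as the metallothioneins under TNBS on the standard diet. The brightest tested probe set, 1417494_a_at, had signals of 1181, 638.7 and 860.4 in standard TNBS samples, against 312.5, 421.0 and 441.9 in standard control samples. Every TNBS sample was above every control. The log2 difference was 1.13 ± 0.27 (2.19-fold), with an adjusted p of 0.150 in limma with 4 groups, 0.0734 with an array-set term and 0.0592 without curcumin control replicate 3. A second probe set, 1455393_at, had 467.2, 322.2 and 340.9 in standard TNBS samples, against 139.0, 250.6 and 217.4 in standard control samples. It did not overlap between the groups either, and differed by 0.87 ± 0.23, with an adjusted p of 0.198 in limma. With an array-set term the difference was 0.99 ± 0.18 with an adjusted p of 0.0485, so this Cp probe set passed as higher in that fit. Within the 2 sets the difference was 1.16 and 0.95.

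Cp was lower with curcumin under TNBS, without passing the threshold. Probe set 1417494_a_at had signals of 433.6, 334.8 and 490.1 in curcumin TNBS samples, all below the lowest standard TNBS sample, with a log2 difference of -1.03 ± 0.27 and an adjusted p of 0.186 in limma (0.0885 with an array-set term). Probe set 1455393_at had 178.4, 257.9 and 232.5 in curcumin TNBS samples, again without overlap, with a difference of -0.71 ± 0.23 (adjusted p of 0.306, or 0.0647 with an array-set term). The comparison with the standard control group and the one with the curcumin TNBS group use the same 3 standard TNBS samples, so their opposite signs are not independent.

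In curcumin control samples Cp 1417494_a_at had signals of 370.5, 350.6 and 646.6, and the high value is replicate 3. The interaction was -1.21 ± 0.38 for this probe set (adjusted p of 0.317 in limma), and -0.93 ± 0.34 without that replicate. The last tested probe set, 1417495_x_at, overlapped between groups in each comparison and differed by 0.37 ± 0.36 for TNBS on the standard diet. Of the 8 Cp probe sets the remaining 5 were under the filter and not tested: 1417496_at (15.9 to 254.7 over the samples), 1417497_at (7.6 to 46.2), 1448734_at (38.6 to 321.3) and 1448735_at (69.8 to 137.2) on 430A, and 1441326_at (88.7 to 259.3) on 430B.

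Tfrc, the transferrin receptor, is covered by 3 ordinary probe sets on 430A and by 3 control probe sets, for the 5′ part, the middle and the 3′ end of the message, on each array type. Its brightest ordinary probe set, 1452661_at, had signals of 3627, 2414 and 2536 in standard TNBS samples, against 2072, 1638 and 2060 in standard control samples. The log2 difference was 0.55 ± 0.19 with no overlap, and the adjusted p was 0.364 in limma. Within the 2 array sets it was 0.25 and 0.98. In curcumin TNBS samples the signals were 1852, 1978 and 1971, all below the standard TNBS samples and near the standard controls, with a difference of -0.54 ± 0.19 (adjusted p of 0.349).

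Probe set 1422966_a_at differed more. Its signals were 677.5, 468.9 and 363.5 in curcumin TNBS samples, against 1617, 1244 and 1106 in standard TNBS samples, a log2 difference of -1.39 ± 0.42 (adjusted p of 0.253 in limma). Standard control samples had 873.2, 261.7 and 570.3, all below the standard TNBS samples, with a difference of 1.33 ± 0.42 for TNBS on the standard diet (adjusted p of 0.299). Within the 2 array sets that difference was 0.42 and 2.02. In curcumin control samples this probe set spread widely, with 456.7, 761.0 and 1302, the last in replicate 3. Its interaction was -1.97 ± 0.59, and -1.60 ± 0.57 without that replicate. The dimmest, 1422967_a_at, had 210.3, 145.1 and 192.9 in curcumin TNBS samples, against 247.4, 309.3 and 356.4 in standard TNBS samples, with no overlap (-0.69 ± 0.28, adjusted p of 0.404), while under TNBS on the standard diet its groups overlapped (0.39 ± 0.28).

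The control probe sets of 430B measured the same samples on other arrays. The 3′ set had signals of 681.8, 978.4 and 991.1 in curcumin TNBS samples, against 2592, 1603 and 1976 in standard TNBS samples. Curcumin control samples had 894.8, 830.3 and 2153, and standard control samples 845.2, 830.0 and 1192. The standard TNBS samples and curcumin control replicate 3 were thus the 4 highest, as they were for 1452661_at, and the log2 signals of the 2 probe sets had a Pearson correlation of 0.905 over the 12 samples, which share their RNA. With the control probe sets kept in the fit of 430B, the 3′ set differed by 1.09 ± 0.31 for TNBS on the standard diet (adjusted p of 0.608 in limma) and by -1.20 ± 0.31 for curcumin under TNBS (adjusted p of 0.0593, where 1.64% of the probe sets of 430B passed). Without curcumin control replicate 3 the second value was the same with a smaller error of 0.21 and an adjusted p of 0.0211, where 2.04% passed. Curcumin TNBS replicates 2 and 3 are the arrays that lay apart on 430B, and without them 1 curcumin TNBS sample is left, assumed to vary like the other groups, with a difference of -1.54 ± 0.44 (adjusted p of 0.481). The middle and 5′ sets of 430B also had every standard TNBS sample above every standard control sample and above every curcumin TNBS sample. On 430A the 3′ and 5′ sets did so too, at signals of at most 595.4 and 236.5, while the middle set, at 28.8 to 135.6, overlapped. The interaction for Tfrc 1452661_at was -0.62 ± 0.27 (adjusted p of 0.482), and -0.43 ± 0.25 without curcumin control replicate 3.

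**Figure D3:**
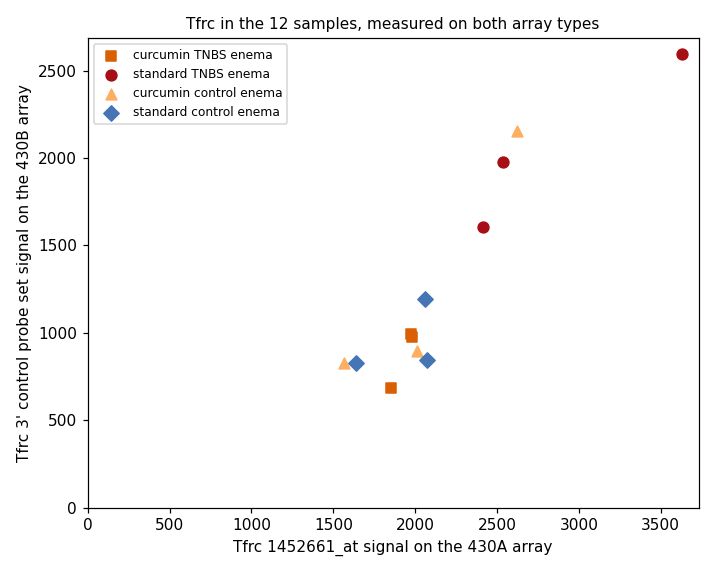
Tfrc in the 12 samples: signal of probe set 1452661_at on 430A (horizontal axis) against signal of the 3′ control probe set on 430B (vertical axis), both linear. The 3 standard TNBS samples and 1 curcumin control sample, replicate 3, lie at or above 1603 on 430B, and the other 8 samples at or below 1192.

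Slc40a1, the gene of the iron exporter ferroportin, ran the other way. Probe set 1417061_at had signals of 2023, 2336 and 2130 in standard TNBS samples, against 2986, 3010 and 2724 in standard control samples. All TNBS samples were below all controls, and the log2 difference was -0.42 ± 0.15 (0.745-fold), with an adjusted p of 0.362 in limma and 0.141 without curcumin control replicate 3. Curcumin TNBS samples had 3046, 3019 and 2658, all above the standard TNBS samples, a difference of 0.42 ± 0.15 (adjusted p of 0.341). In curcumin control samples the signals were 3133, 2911 and 2047, so replicate 3 was again among the standard TNBS values. The interaction was 0.55 ± 0.21 (adjusted p of 0.409), and 0.37 ± 0.16 without that replicate. The second probe set, 1448566_at, did not show the TNBS difference: it had 1467, 1256 and 1374 in standard TNBS samples, against 1665, 1062 and 1611 in standard control samples (-0.06 ± 0.17). For curcumin under TNBS it had the same direction as the first, with 1575, 1940 and 1691 in curcumin TNBS samples, all above the standard TNBS samples (0.34 ± 0.17, adjusted p of 0.544).

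Over the 12 samples Slc40a1 and Cp were opposed. Their leading probe sets, 1417061_at and 1417494_a_at, had a Pearson correlation of log2 signals of -0.916, and of -0.827 with group means removed. Tfrc and Slc40a1 had -0.851 (-0.690 with group means removed), and Tfrc and Cp 0.860 (0.673). These are descriptions over samples that share group, array type and scaling, and curcumin control replicate 3 lies at the TNBS end of each.

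**Figure D4:**
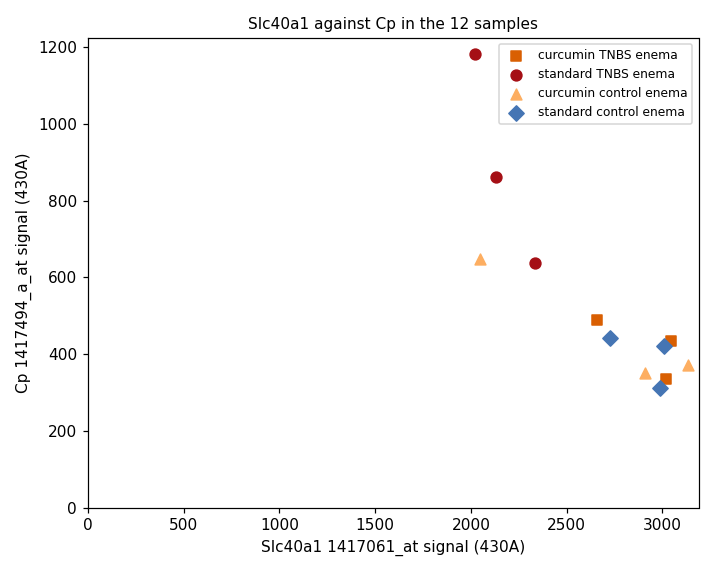
Signal of Slc40a1 (1417061_at, horizontal axis) against signal of Cp (1417494_a_at, vertical axis) in the 12 samples, both on 430A with linear axes from 0. The 3 standard TNBS samples and curcumin control replicate 3 have Slc40a1 signals of at most 2336 and Cp signals of at least 638.7, and the other 8 samples have Slc40a1 signals of at least 2658 and Cp signals of at most 490.1.

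The remaining iron uptake genes were Slc11a2 and Trf. Slc11a2, which encodes DMT1, had 3 tested probe sets. The brightest, 1417584_at, had signals of 385.2, 504.6 and 377.0 in curcumin TNBS, 364.8, 477.1 and 407.3 in standard TNBS, 430.5, 325.6 and 444.1 in curcumin control and 416.2, 323.7 and 512.2 in standard control samples. The groups overlapped throughout, and the log2 difference for TNBS on the standard diet was 0.01 ± 0.20. For 1426441_at the enema effect had opposite signs on the diets, -0.28 ± 0.19 on curcumin and 0.36 ± 0.19 on the standard diet, with an interaction of -0.64 ± 0.26 (adjusted p of 0.450 in limma). Probe set 1452078_a_at had 341.6, 256.6 and 228.4 in curcumin TNBS samples, against 343.7, 393.6 and 465.4 in standard TNBS samples (-0.52 ± 0.25, adjusted p of 0.503). Another, 1441709_at on 430B, ran from 27.3 to 309.0 and was not tested.

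The single probe set annotated to Trf, 1425546_a_at, is also annotated to Srprb, so its signal cannot be given to transferrin alone. It had signals of 290.8, 230.1 and 241.3 in curcumin TNBS, 320.2, 359.8 and 350.7 in standard TNBS, 60.1, 280.4 and 278.1 in curcumin control and 252.5, 145.2 and 287.0 in standard control samples. Standard TNBS samples were the highest without overlap. The log2 difference was 0.61 ± 0.43 against standard control (adjusted p of 0.745 in limma) and -0.42 ± 0.43 for curcumin TNBS against standard TNBS (adjusted p of 0.819). The one value of 60.1 widened the error.

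Fth1, the heavy chain that oxidises iron for storage, did not separate the groups. Its signal ran from 12014 to 20413 for 1427021_s_at and from 8594 to 12349 for 1448771_a_at over all samples. The largest value of the first was in curcumin control replicate 2, and the groups overlapped in each comparison. For TNBS on the standard diet the log2 differences were 0.10 ± 0.19 (95% interval -0.31 to 0.51) and -0.09 ± 0.13 (-0.37 to 0.19), and for curcumin under TNBS they were -0.12 ± 0.19 and -0.00 ± 0.13.

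The 3 probe sets annotated to the light chain gene Ftl1 are shared with Ftl1-ps2, a ferritin pseudogene, and 1422301_at with 3 further symbols, so they cannot be given to 1 gene. Probe set 1422302_s_at had signals of 5758 to 9175 and differed by -0.12 ± 0.16 for TNBS on the standard diet. Probe set 1418364_a_at was the one tested probe set that separated the diets: it had 3379, 2819 and 2782 in curcumin TNBS samples, against 2221, 2713 and 2448 in standard TNBS samples. Under the control enema it had 2883, 3617 and 2832 in curcumin samples, against 2726, 2346 and 2645 in standard diet samples. All 6 curcumin samples were above all 6 standard samples, as in 0.0958% of all tested probe sets, while 0 of the 20 had all curcumin samples below, against 0.0884%. The log2 difference averaged over the enemas was 0.27 ± 0.09 (unadjusted p of 0.0129, adjusted p of 1 in limma, or 0.463 with an array-set term), so it did not pass. Probe set 1422301_at ran from 207.5 to 452.5, with differences of 0.42 ± 0.24 for TNBS on the standard diet and -0.33 ± 0.24 for curcumin under TNBS. The other probe sets of these symbols did not separate the diets. Averaged over the enemas, 1422302_s_at differed by 0.13 ± 0.11 and 1422301_at by 0.05 ± 0.17, with overlap in both.

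**Figure D5:**
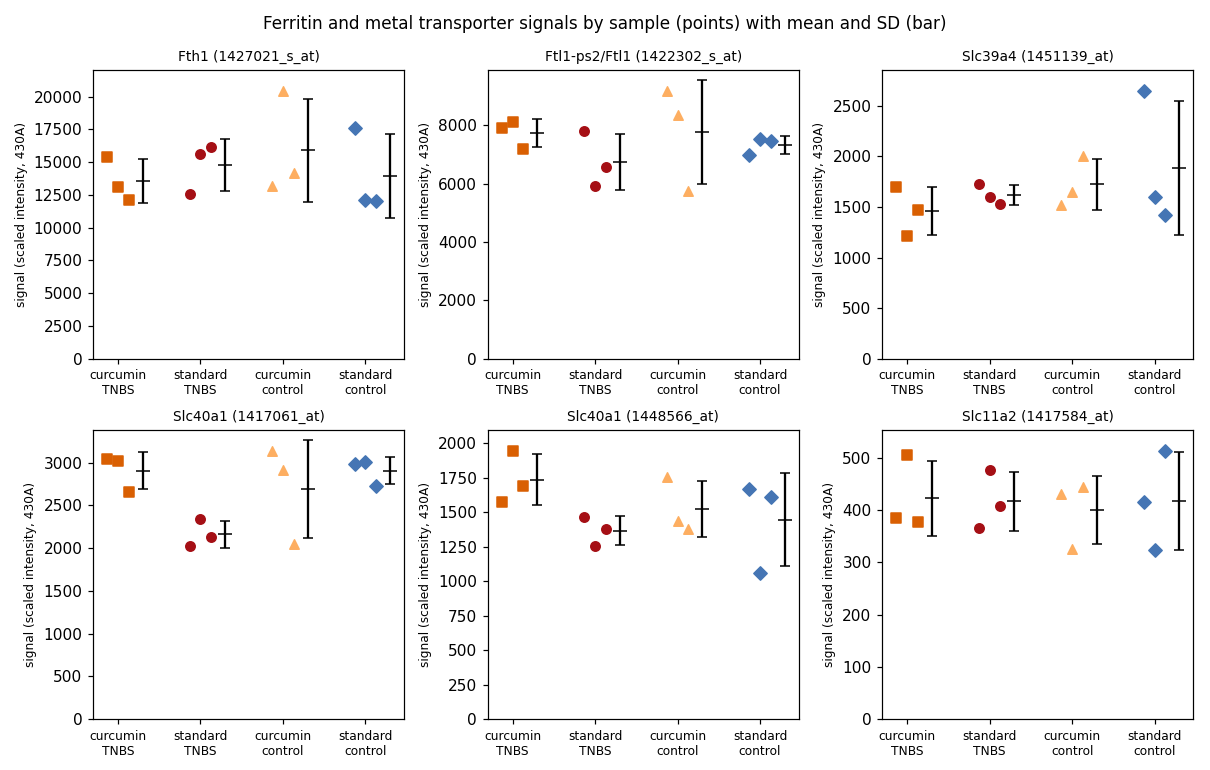
Signals of Fth1, the probe set shared by Ftl1 and Ftl1-ps2, Slc39a4, both Slc40a1 probe sets and Slc11a2 on 430A in each of the 12 samples (points), with the mean and SD of each group of 3 (bars), on linear axes from 0. Only Slc40a1 1417061_at has standard TNBS samples wholly below the standard controls, and both Slc40a1 probe sets have curcumin TNBS samples wholly above the standard TNBS samples.

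Slc39a4, the zinc importer ZIP4 of the intestinal epithelium, overlapped between the groups in each comparison. Probe set 1451139_at had signals of 1692, 1217 and 1468 in curcumin TNBS, 1722, 1594 and 1525 in standard TNBS, 1520, 1648 and 2003 in curcumin control and 2644, 1596 and 1422 in standard control samples. One standard control sample was high and the rest overlapped. The log2 difference was -0.17 ± 0.21 for TNBS on the standard diet (adjusted p of 0.864 in limma) and -0.15 ± 0.21 for curcumin under TNBS (adjusted p of 0.862).

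For curcumin against the standard diet under TNBS, 0 of the 20 probe sets passed, against 0.0295% of all tested, and 0 passed with an array-set term, against 0.221%. At an unadjusted p under 0.05 there were 6 lower and 1 higher, against 10.2% of all tested. Of the 20, 8 had curcumin samples wholly below the standard diet samples and 3 wholly above, against 7.98% and 8.18% of all tested probe sets. These 8 were the probe sets of Mt1 (1422557_s_at), Tfrc (all 3), Cp (1417494_a_at and 1455393_at), Slc11a2 (1452078_a_at) and the one shared by Trf and Srprb, and the 3 were both of Slc40a1 and 1418364_a_at of Ftl1 and Ftl1-ps2. Under the control enema 0 of the 20 passed (0% of all tested did), with 3 wholly above and 0 wholly below, against 3.12% and 3.73%, and 1 of the 20, that of Mt2, had an unadjusted p under 0.05, against 3.06%. With array weights 6 of the 20 passed for curcumin under TNBS, against 12% of all tested: both probe sets of Slc40a1 were higher, and Tfrc 1422966_a_at and 1422967_a_at, Slc11a2 1452078_a_at and Cp 1417494_a_at lower. With an array-set term and without curcumin control replicate 3, Slc40a1 1417061_at passed as higher and Cp 1417494_a_at and 1455393_at as lower, against 1.89% of all tested, and without that replicate alone 0 passed, against 0.361%. With that term and without curcumin control replicate 1, Cp 1455393_at alone passed as lower, against 0.309%. Averaged over both enemas, 1 of the 20 was higher and 3 lower with curcumin at an unadjusted p under 0.05, against 3.81%, and averaged over both diets 3 were higher with TNBS, against 2.93%, while 0 passed the adjusted threshold in either average.

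The sums of neutrophil and of macrophage markers were highest in the standard TNBS samples. The summed signal of 9 of 10 neutrophil markers was 868.3 to 1792 in curcumin TNBS, 4602 to 8587 in standard TNBS, 1224 to 1541 in curcumin control and 1173 to 1296 in standard control samples, with S100a8 down to 12.3 and S100a9 down to 5.9. For 10 macrophage markers the sums were 9490 to 10790 in curcumin TNBS, 12100 to 14230 in standard TNBS, 8774 to 10550 in curcumin control and 8385 to 9814 in standard control samples. Of the adipocyte list, 5 of 7 markers summed to 5677 to 8651 in curcumin TNBS, 2998 to 7068 in standard TNBS, 5108 to 8088 in curcumin control and 7886 to 8272 in standard control samples. The adipocyte sums of the standard TNBS samples overlapped those of both curcumin groups and lay below those of the standard controls. Of the tested markers, 5 of neutrophils, 9 of macrophages and 4 of adipocytes, 0 passed for TNBS on the standard diet or for curcumin under TNBS in limma, with median log2 differences for TNBS on the standard diet of 1.04, 0.34 and -0.66. Their part in the values of the metal genes was not tested. In whole tissue, fewer cells of a type and less RNA per cell cannot be told apart.

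Pancreas transcripts were high in some samples of every group. The sum of 9 of 12 acinar markers was 2746 to 93510 in curcumin TNBS, 45360 to 116400 in standard TNBS, 2521 to 55810 in curcumin control and 2765 to 117600 in standard control samples. Within the 8 samples with Cpa1 above 1000, the log2 differences for TNBS on the standard diet were 0.87 ± 0.29 for Mt1, 0.98 ± 0.21 for Mt2, 0.98 ± 0.24 for Cp, 0.61 ± 0.20 for Tfrc and -0.40 ± 0.14 for Slc40a1, with adjusted p-values in limma of 0.164 to 0.388. For the brightest probe sets of the other members they were 0.28 ± 0.16 for Fth1, -0.16 ± 0.14 for Ftl1 and Ftl1-ps2, 0.02 ± 0.23 for Slc11a2, 0.70 ± 0.29 for Trf and Srprb, and 0.10 ± 0.14 for Slc39a4, which had the opposite sign over all 12 samples. This subset was chosen after the data were seen. For 5 of 6 liver genes the sums were 638.4 to 1320 in curcumin TNBS and 491.4 to 644.6 in standard TNBS samples. They were 677.6 to 787.3 in curcumin control and 770.4 to 1495 in standard control samples. Among these genes Fgb ran from 2.9 to 18.0, Alb from 159.5 to 300.9 and Ttr from 184.7 to 1109.5. The sums of 3 of 7 red cell genes were at most 346.4.

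The wider iron list held 45 genes, 43 on the arrays and 33 tested. Lcn2 is set aside, for the reason given below. No other gene of the iron, heme, zinc or copper lists passed in any comparison of the fit of the group means. Lcn2 had signals of 134.5, 123 and 159 in curcumin TNBS samples, against 6003, 2957 and 5714 in standard TNBS samples. Standard control samples had 56.9, 114.4 and 72.8. Lcn2 was kept by the filter on low signals only through the standard TNBS samples: its mean log2(signal + 16) was 7.17 over the other 9 samples, under the cutoff of 7.61, so no fold and no test are given for it. Of the 20 member probe sets, 0 were kept only through 1 group.

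Steap4, a metalloreductase that reduces iron and copper for uptake, had 651.9, 409.7 and 733.6 in standard TNBS samples, against 282.0, 186.0 and 404.2 in standard control samples (1.02 ± 0.33, adjusted p of 0.314 in limma). Ltf, the iron-binding lactoferrin of neutrophil granules and secretions, had 313.2, 340.2 and 355.8 in standard TNBS samples, against 244.1, 145.4 and 145.2 in standard control samples (0.90 ± 0.28, adjusted p of 0.283). Both were higher in every standard TNBS sample than in every standard control sample, as were 7.01% of all tested probe sets of 430A, and neither passed. They were named for p-values among the smallest of their list in that comparison or the interaction. Their lack of overlap therefore adds no support. Heph, the membrane ferroxidase hephaestin that works beside ferroportin in enterocytes, had 1007, 900.3 and 754.9 in curcumin TNBS samples, against 678.2, 617.9 and 622.3 in standard TNBS samples (0.45 ± 0.20, adjusted p of 0.455).

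Fbxl5 and Glrx5 were measured on 430B, where curcumin TNBS replicates 2 and 3 lay apart. Fbxl5, the iron-sensing part of the ligase that degrades the iron regulatory protein Ireb2, differed by -0.66 ± 0.18 for curcumin under TNBS (adjusted p of 0.0646 in limma). Its signals were 3821, 3077 and 2430 in curcumin TNBS samples, against 4431, 5132 and 5026 in standard TNBS samples. Glrx5, of mitochondrial iron-sulfur cluster assembly, differed by -0.51 ± 0.17 there (adjusted p of 0.103). It had 8717, 6203 and 6877 in curcumin TNBS samples, against 9461, 9910 and 11401 in standard TNBS samples. For both genes the lower curcumin TNBS values are those of the arrays that lay apart. Both were named for p-values among the smallest of their list for TNBS on the standard diet or the interaction, which uses the same samples. Hamp, the hormone hepcidin that makes cells degrade ferroportin, ran from 149.3 to 303.9 and differed by 0.04 ± 0.27 for TNBS on the standard diet. The ferric reductase gene Cybrd1 ran from 196.0 to 332.5 and differed by 0.06 ± 0.24. Hmox1, which frees iron from heme, ran from 8.1 to 202.2 and was not tested.

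All 7 measured heme synthesis genes were tested and 0 passed. Alas1, the first and rate-limiting enzyme of that pathway, had 1784, 2074 and 1904 in standard TNBS samples, against 1480, 1190 and 1310 in standard control samples (0.53 ± 0.20, adjusted p of 0.392 in limma). Those groups did not overlap, as in 7.01% of all tested probe sets of 430A, and Alas1 was named for a small p in the same way. Alad and Cpox, later enzymes of the pathway, ran from 828.1 to 1183 and from 283.3 to 398.1. The median log2 difference of the heme list for TNBS on the standard diet was 0.12, beside -0.02 over all genes tested, and that of the iron list was 0.04.

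Of 26 zinc genes 20 were tested and 0 passed, and the median difference for TNBS on the standard diet was 0.02. Slc30a1, the zinc exporter that MTF1 is known to induce beside the metallothioneins, ran from 169.8 to 315.6 and overlapped between the groups (0.10 ± 0.27, adjusted p of 0.956 in limma). Slc39a10, a zinc importer on 430B, had 710.2, 414.5 and 709.1 in curcumin TNBS samples, against 1345, 1585 and 1654 in standard TNBS samples (-1.33 ± 0.34, adjusted p of 0.0565), and its highest signal, 2242, was in curcumin control replicate 3. Curcumin TNBS replicates 2 and 3 are the arrays that lay apart on 430B. Slc39a10 too was named for a p-value among the smallest of its list for TNBS on the standard diet or the interaction. With control probe sets kept, 1.64% of the probe sets of 430B passed for curcumin under TNBS. Slc30a10, listed with the zinc exporters but known to export manganese, had 619.5, 1081 and 845.2 in standard TNBS samples, against 2709, 1795 and 1154 in standard control samples (-1.09 ± 0.34, adjusted p of 0.714). Slc39a7, which releases zinc from the endoplasmic reticulum, differed by 0.25 ± 0.15 and the zinc and iron importer gene Slc39a14 by 0.03 ± 0.16 for TNBS on the standard diet, and Slc39a13, another zinc transporter, ran from 172.1 to 400.2.

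Among 12 copper genes 11 were tested and 0 passed, with a median difference of 0.03. Commd1, which takes part in copper export, had 1038, 1501 and 1321 in standard TNBS samples, against 910.0, 897.7 and 860.9 in standard control samples (0.51 ± 0.18, adjusted p of 0.362 in limma). Its groups did not overlap, as in 7.01% of all tested probe sets of 430A, and Commd1 too was named for a small p. The copper chaperone gene Atox1 differed by 0.25 ± 0.18 and Cox17, which carries copper to cytochrome c oxidase, by -0.43 ± 0.39.

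The genes whose log2 signals were most like those of each member over the 12 arrays of 430A are given as a description. For Tfrc they were Slc43a3 (Pearson correlation 0.952), Mrc1 (0.947) and Gna14 (0.939), and for Cp they were Reg3d (0.960), Ctla2a (0.940) and Socs3 (0.936). For Slc40a1 they were Abat (0.971), Ces1g (0.943) and Trim2 (0.937). Mt1 was most like Erp29 (0.921), Mt2 (0.914) and Rpl37a (0.909), and Mt2 most like Mt1, Ckap4 (0.905) and Pgk1 (0.854). Fth1 was most like Anxa2 (0.956), Psmb4 (0.950) and Krt19 (0.948). The probe set of Ftl1 and Ftl1-ps2 had Cklf (0.916), Arhgef2 (0.873) and Mrpl11 (0.868), Slc11a2 had Phospho2 (0.899), Arhgef40 (0.868) and Dcun1d1 (0.822), Slc39a4 had Slc5a1 (0.863), Cdc42se1 (0.861) and Zc3h15 (0.830), and the probe set of Trf and Srprb had Smad4 (0.944), Lama2 (0.916) and Col6a1 (0.895). Each was ranked over the tested probe sets of 430A that carry a single symbol, which share arrays and scaling.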

How the data were processed

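Total RNA of whole colon was hybridised to the Affymetrix MOE430A and 430B arrays, 12 of each. The deposited signal intensities were made by GCOS, per the submitters' processing notes, and its version and settings are not given in the sources used here. Their 2% trimmed mean was 500.1 to 500.2 on every 430A array, so the deposited intensities are scaled per array. Probe sets were named from the platform annotation, and those with several symbols were given to no single gene.

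Signals were taken as log2(signal + 16), and probe sets other than controls were kept when their mean over the arrays lay above the 40th percentile of their array type. limma 3.58.1 in R 4.3.3 fitted the 4 group means with 8 residual degrees of freedom and an intensity trend, with Benjamini-Hochberg adjustment within an array type. The fit was tested on simulated data. Precision is limited by how few arrays there are, with a median standard error of 0.198 for a log2 difference between 2 groups. Outlying 430B arrays lay over 5 median absolute deviations from the rest.

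Each member was described by its brightest tested probe set, with its other probe sets beside it. Ftl1 and Trf have probe sets with several symbols only, which were kept and described as shared. Named list genes were Hamp, Hmox1, Lcn2, Heph, Cybrd1, Slc30a1 and Slc39a14, any past the threshold, and per list the 3 with the smallest p for TNBS on the standard diet and for the interaction. Alternatives were other pseudocounts, filters, scalings and thresholds, array weights, no trend, the array-set term, 2-group fits, each sample left out and, chosen after seeing the data, samples with pancreas transcripts only, fits with Tfrc control probe sets kept, and leaving out samples with the array-set term. The members, lists and tests were chosen with earlier results of these data known. The promoter windows are RefSeq's on GRCm38.p6.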

Additional observations from a re-analysis of the deposited data

How the results depend on the processing

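In the 4-group fit 0 of the 20 tested probe sets passed in any of the 7 comparisons, and calls came only from some settings. For TNBS on the standard diet 1 passed with array weights, 2 with an array-set term and 7 without adjustment, and with single samples left out, with and without that term, 0 to 5. The count of 5 came from leaving out curcumin control replicate 3 together with that term, and leaving it out alone gave 1. For curcumin under TNBS 6 passed with array weights and 7 without adjustment, and with single samples left out 0 to 3, where 3 came from that same pair of changes and leaving out the replicate alone gave 0. For the interaction 2 passed with array weights and 8 without adjustment. Without adjustment 1 passed for curcumin under the control enema, 3 for TNBS averaged over diets and 4 for curcumin averaged over enemas. The cause of these differences was not tested. Of 70 log2 differences of the brightest probe sets, 29 kept their sign in all 37 settings and 41, none of them called in the 4-group fit, changed sign in at least 1. For TNBS on the standard diet the difference ran from 0.75 to 1.31 for Mt1 (adjusted p of 0.0457 to 0.424 in limma), 0.93 to 1.39 for Mt2 (0.00934 to 0.323), 0.91 to 1.36 for Cp (0.0132 to 0.425), 0.35 to 0.75 for Tfrc (0.061 to 0.77) and -0.48 to -0.34 for Slc40a1 (0.0444 to 0.71). The 2-group fits give no value for comparisons over all 4 groups, and the Trf and Srprb probe set gave none under the stricter filter. No paired analysis was possible because the labels number the samples without pairing them across groups. With 3 arrays a group, log2 differences of 1.09 for Mt1 to 1.19 for Mt2 did not pass the adjusted threshold in the 4-group fit.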
